A study of Mus musculus with 26 samples.

Results

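Levels of 10 transcription factor genes linked to astrocytes, namely Sox9, Rfx4, Nfia, Nfib, Nfix, Lhx2, Emx2, Sox2, Sox21 and Pax6, were described in nuclear RNA of whole mouse brain. The genes were chosen by symbol, and each symbol matched 1 of the 27501 Ensembl gene identifiers in the deposited count table. RNA was sequenced from sorted nuclei of astrocytes, neurons and oligodendrocytes, from presort nuclei, which were taken before the sort, and from cytoplasm. Sorted and presort astrocyte-line nuclei came from the Aldh1L1-EGfp/Rpl10a line JD130Htz/J, a B6.FVB transgenic strain, neuron-line nuclei from the Snap25-EGfp/Rpl10a line JD362Htz/J and oligodendrocyte-line nuclei from the Cnp-EGfp/Rpl10a line JD368Htz/J. All mice carried a fusion of enhanced green fluorescent protein (EGFP) with the ribosomal protein gene Rpl10a, so no group was free of a transgene, and the promoter of each line sets which cells are marked. The mice were 6 to 12 weeks old. Each of the 6 nuclear groups held 4 libraries, 2 of males and 2 of females. Within a group, each replicate was a separate mouse. The 2 cytoplasm libraries, from a male of the Aldh1L1 line and a female of the Cnp line, are whole-brain cytoplasm and hold RNA of all cell types.

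SOX9 is an HMG-box factor that neural progenitors need to switch from making neurons to making glia, and NFIA, a nuclear factor I protein, acts with it on early astrocyte genes. RFX4 is a winged-helix factor of neural progenitors and astrocytes, SOX2 and PAX6 maintain progenitors, and LHX2 and EMX2 are homeodomain factors that pattern the embryonic cortex. Several of these genes have other uses in the adult brain, such as Pax6 in cerebellar granule neurons and Nfix in several neural lineages.

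The label of astrocyte factors held for only some of the 10 genes. In sorted nuclei, Sox9, Rfx4, Lhx2 and Sox21 were higher in astrocytes than in neurons and than in oligodendrocytes. Sox2 was shared by astrocytes and oligodendrocytes, Pax6 by astrocytes and neurons, Nfia and Nfib were found in all 3 types, and Nfix was highest in oligodendrocytes. Emx2 was near the limit of detection.

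Total counts per library lay between 134357 and 4461568, and 3 counts, used here as the floor of detection, corresponded to between 0.672 and 22.3 CPM (counts scaled to a library total of 1000000). Presort nuclei were sequenced less deeply, with 147826 to 313720 counts in 11 of 12 libraries and 3274488 in astrocyte-line replicate 29. Summed levels of 12 astrocyte markers, all detected, were 22931 to 27695 CPM in sorted astrocytes, against 731 to 1091 CPM in sorted neurons and 255 to 1749 CPM in sorted oligodendrocytes. Sorted astrocyte replicate 30 had 134357 counts. Sorted oligodendrocyte replicate 36 stood apart, with 7674 genes detected, 0 counts of the transgene's GFP entry and a normalization factor of 0.629. The GFP entry was low in all sorted oligodendrocyte libraries, with 0 to 52.9 CPM, against 57.5 to 96.2 CPM in presort oligodendrocyte-line nuclei. Calls on the 10 genes that change without either, and larger shifts in value, are given beside the results.

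The upstream sequences of 4 genes are shown, so that the cores that these families of factors bind can be seen beside the levels. Rfx4 stands for the astrocyte pattern, Lhx2 for a lower copy of it, Sox2 for the glial pattern and Pax6 for the pattern shared with neurons. The patterns of Nfia, Nfib and Nfix are not represented. Each is the 250 bases before a RefSeq transcript start (GRCm38.p6, plus strand, 5′ to 3′), a stretch that overlaps no exon of the gene. Capitals mark the NFI core TTGGC or its reverse complement GCCAA, the SOX cores ACAAAG and ACAATG, and the reverse complement GGCAAC of the RFX core GTTGCC.
Rfx4, chr10:84755798-84756047: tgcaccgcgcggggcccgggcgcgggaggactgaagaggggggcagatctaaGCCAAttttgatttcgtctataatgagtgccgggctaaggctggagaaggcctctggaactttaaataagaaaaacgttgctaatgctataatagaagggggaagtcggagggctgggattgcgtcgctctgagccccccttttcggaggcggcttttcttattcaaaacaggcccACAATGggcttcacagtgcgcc
Lhx2, chr2:38339031-38339280: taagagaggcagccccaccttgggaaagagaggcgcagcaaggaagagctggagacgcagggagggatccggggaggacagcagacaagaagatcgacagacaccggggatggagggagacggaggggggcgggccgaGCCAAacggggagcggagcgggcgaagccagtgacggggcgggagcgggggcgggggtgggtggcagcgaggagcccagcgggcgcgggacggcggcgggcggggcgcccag
Sox2, chr3:34649745-34649994: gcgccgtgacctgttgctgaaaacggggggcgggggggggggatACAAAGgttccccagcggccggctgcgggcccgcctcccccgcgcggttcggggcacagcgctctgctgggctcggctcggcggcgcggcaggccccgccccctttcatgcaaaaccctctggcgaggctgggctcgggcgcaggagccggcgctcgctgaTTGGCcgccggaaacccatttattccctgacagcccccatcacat
Pax6, chr2:105668646-105668895: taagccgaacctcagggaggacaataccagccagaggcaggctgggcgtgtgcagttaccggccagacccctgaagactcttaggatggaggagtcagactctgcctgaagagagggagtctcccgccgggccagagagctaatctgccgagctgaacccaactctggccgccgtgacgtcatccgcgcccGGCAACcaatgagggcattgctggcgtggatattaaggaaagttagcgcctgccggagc

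The promoter table held 8 of the 10 genes, with 14 starts, and did not list Sox9 and Nfib. On either strand, the NFI core stood before 5 of the 14 starts, the SOX core ACAAAG before 3, the SOX core ACAATG before 3 and the RFX core before 2. Among all 32851 promoters of the same length, the shares were 41.5%, 16.5%, 10.7% and 10.4% in the same order. The motifs are too short and too frequent to set these promoters apart, and a match is a description of letters and not of binding.

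**Figure D1:**
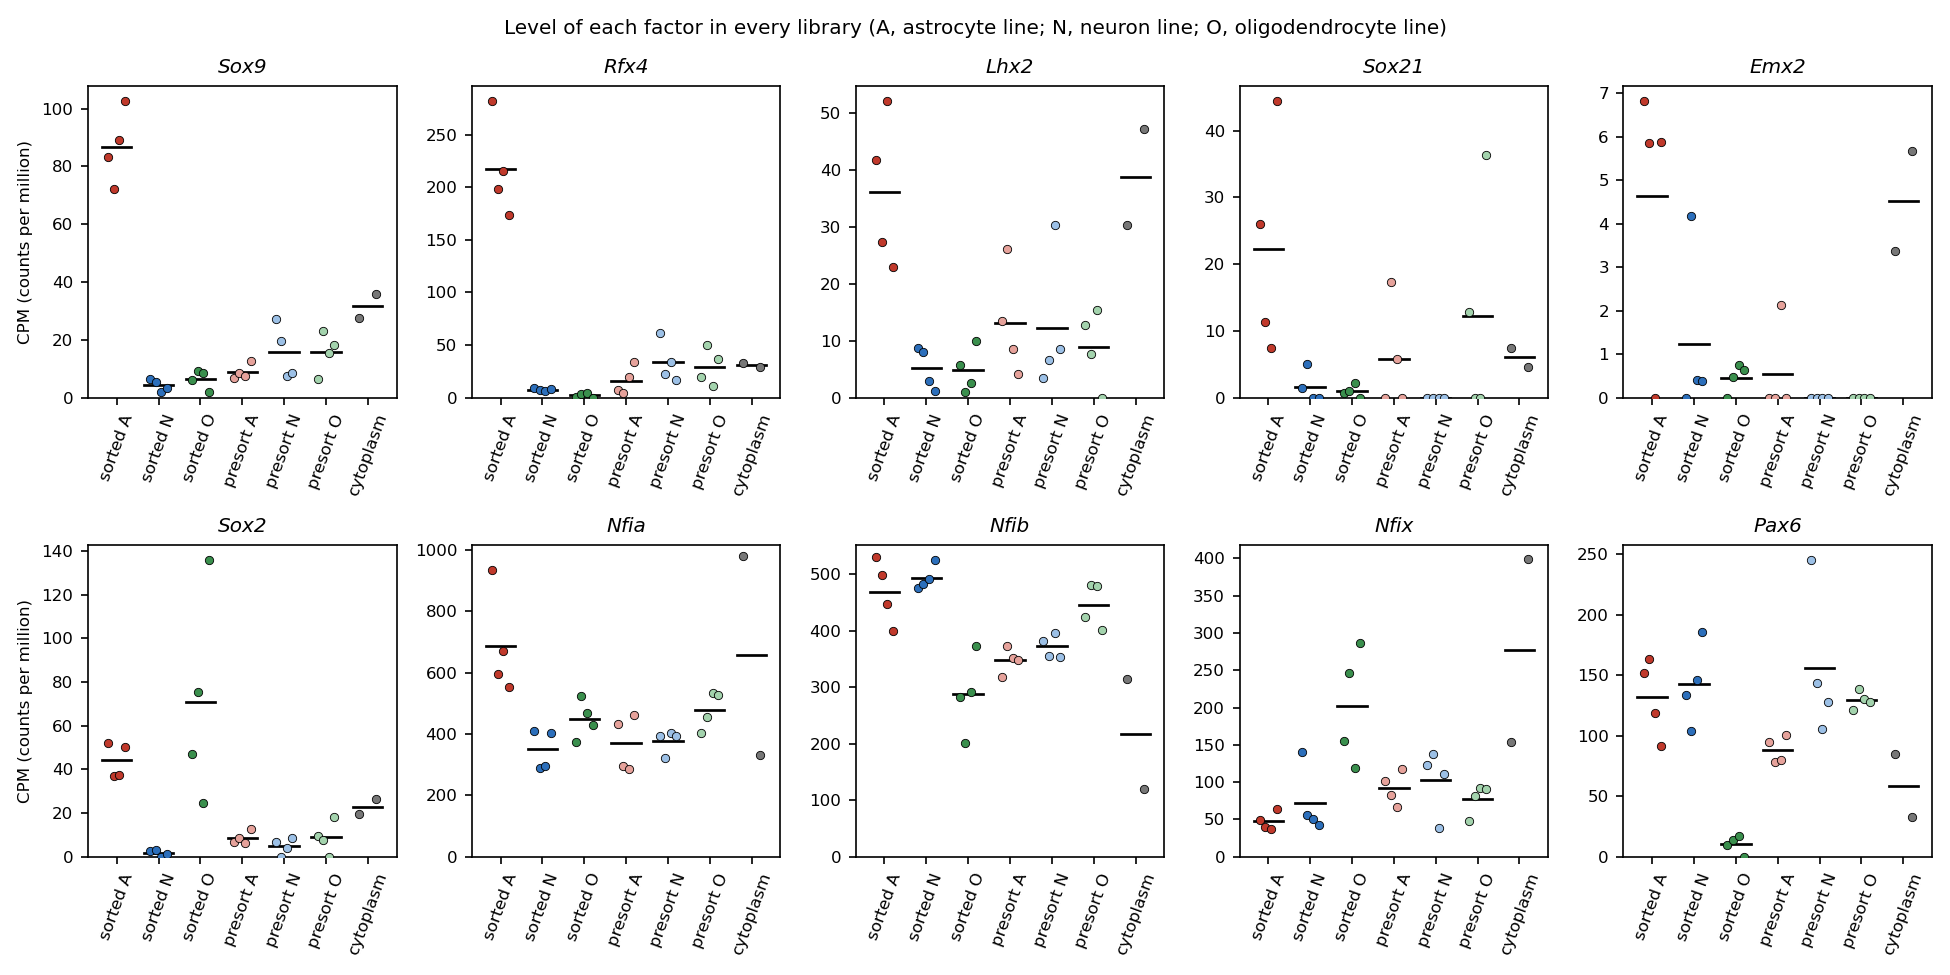
Level of each of the 10 genes in CPM (vertical axis, starting at 0, with its own scale in each panel) in the 26 libraries by group. Points are libraries and horizontal lines are group means. Sox9 and Rfx4 lie far higher in the 4 sorted astrocyte libraries than in any other group, Sox2 is high in sorted astrocytes and oligodendrocytes, Pax6 is low in sorted oligodendrocytes, and Nfix is lowest in sorted astrocytes.

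Sorted nuclei were compared pairwise in 1 edgeR fit of 12 libraries and 13029 genes, with p-values adjusted over all genes tested, and all 10 genes entered it. A gene could pass the filter on low counts through the type where it was high, so the counts of called genes are not independent of the filter. Between astrocytes and neurons, 6 of the 10 were higher in astrocytes (Sox9, Rfx4, Nfia, Lhx2, Sox2 and Sox21), where 11.4% of all genes tested were higher. None of the 10 was lower, where 8.02% of all genes were, and the count of lower genes was also 0 at an unadjusted p under 0.05 and with DESeq2. The median log2 difference of the 10 genes was 2.64, and that of all genes was -0.05. Between astrocytes and oligodendrocytes, 6 of the 10 were higher in astrocytes (Sox9, Rfx4, Lhx2, Emx2, Sox21 and Pax6), where 9.62% of all genes were, and only Nfix was lower, where 7.49% of all genes were. Here the median of the 10 genes was 2.94, and that of all genes was 0.11. Between neurons and oligodendrocytes, only Pax6 was higher in neurons, where 10.7% of all genes were, and Nfix and Sox2 were lower, where 12.4% of all genes were. In bulk samples, fewer cells of a type and less RNA per cell cannot be told apart.

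**Figure D2:**
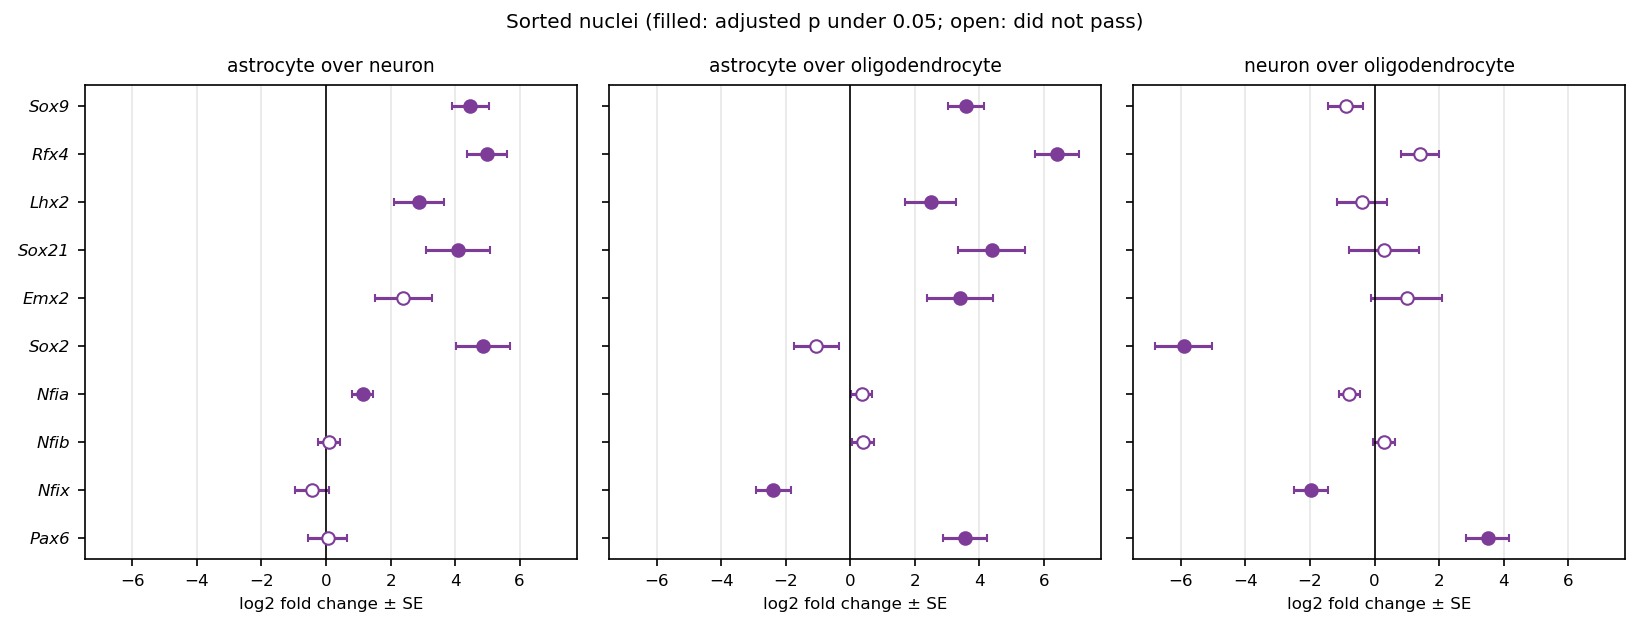
Log2 fold change ± SE (horizontal axis) of the 10 genes between sorted nuclei, for astrocyte over neuron, astrocyte over oligodendrocyte and neuron over oligodendrocyte. Filled points passed an adjusted p of 0.05. Rfx4 is the gene farthest to the right in the 2 astrocyte panels, Nfix lies to the left in the oligodendrocyte panels, and Sox2 lies farthest to the left in neuron over oligodendrocyte.

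Sox9 (ENSMUSG00000000567, chr11:112782224-112787760 in GENCODE vM21 on GRCm38, plus strand) encodes a factor needed for the switch to making glia. Per-library values follow the replicate numbers, astrocyte replicates 6, 8, 30 and 32, neuron replicates 2, 4, 26 and 28 and oligodendrocyte replicates 10, 12, 34 and 36, with males before females. Sox9 had 83.1, 72.2, 89.3 and 103 CPM in sorted astrocytes, against 6.41, 5.43, 2.08 and 3.43 CPM in sorted neurons and 6.14, 9.06, 8.57 and 1.87 CPM in sorted oligodendrocytes. Every astrocyte library lay above every library of the other 2 types, whose values overlapped each other. The log2 difference was 4.47 ± 0.58 against neurons (SE, adjusted p = 5.55e-05) and 3.58 ± 0.56 against oligodendrocytes (adjusted p = 0.000234). Neurons and oligodendrocytes did not differ past the threshold (-0.89 ± 0.54, adjusted p = 0.26), but without sorted oligodendrocyte replicate 36 the difference was -1.11 with an adjusted p of 0.0388.

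Rfx4 (ENSMUSG00000020037, chr10:84756062-84906538, plus strand) had the largest differences among the 10 genes in both astrocyte comparisons. It had 282, 198, 216 and 173 CPM in sorted astrocytes, against 8.67, 7.52, 6.23 and 8.01 CPM in sorted neurons. In sorted oligodendrocytes it had 1.02, 3.34, 4.47 and 0 CPM, where 0 counts in replicate 36 allow up to 1.87 CPM. None of the 3 types overlapped another, and astrocytes were higher by 4.99 ± 0.62 on the log2 scale than neurons (adjusted p = 4.13e-05) and by 6.40 ± 0.68 than oligodendrocytes (adjusted p = 7.15e-06). The lower step, neurons over oligodendrocytes, was 1.41 ± 0.60 with an adjusted p of 0.104. That step passed with DESeq2 (1.48, adjusted p = 0.0241), without oligodendrocyte replicate 34 (1.93, adjusted p = 0.049) and without replicate 36 (1.12, adjusted p = 0.0496).

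Lhx2 (ENSMUSG00000000247, chr2:38339281-38369733, plus strand), a LIM homeodomain factor, had 41.8, 27.3, 52.1 and 22.8 CPM in sorted astrocytes, against 8.67, 7.93, 2.91 and 1.14 CPM in sorted neurons and 5.80, 0.953, 2.61 and 9.98 CPM in sorted oligodendrocytes. The astrocyte libraries again lay above all others. The log2 difference against neurons was 2.88 ± 0.78 (adjusted p = 0.0147), and it missed the threshold without neuron replicate 26 (2.64, adjusted p = 0.0589) or 28 (2.51, adjusted p = 0.0531). Against oligodendrocytes it was 2.49 ± 0.79 (adjusted p = 0.0376). That call was the least stable of the set, since it was lost without astrocyte replicate 6 (2.34, adjusted p = 0.102), 8 (2.55, 0.0712), 30 (2.34, 0.0776) or 32 (2.60, 0.0657), without neuron replicate 4 (2.44, 0.0554) or 26 (2.44, 0.0535), and without oligodendrocyte replicate 10 (2.29, 0.109), 12 (1.95, 0.118) or 34 (2.21, 0.0931), whereas it was 3.26 (0.000758) without oligodendrocyte replicate 36. It was also lost with another size factor, relative log expression (2.35, adjusted p = 0.0565), with sex as a covariate (2.44, 0.0597) and in a fit of only the 2 groups (2.29, 0.105).

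Sox21 (ENSMUSG00000061517, chr14:118233232-118237030, minus strand), which counteracts SOX2-class activators in progenitors, had 26.01, 11.3, 7.44 and 44.5 CPM in sorted astrocytes, where the value of replicate 30 rests on 1 count. Sorted neurons had 1.51, 5.01, 0 and 0 CPM, and sorted oligodendrocytes had 0.682, 0.953, 2.24 and 0 CPM. The astrocyte libraries lay above the other 8, though the lowest of them is not separated from 0 by its counts. Against neurons the log2 difference was 4.09 ± 0.98 (adjusted p = 0.00659) and against oligodendrocytes 4.38 ± 1.03 (adjusted p = 0.00621). Leaving out neuron replicate 4 gave 5.52 against neurons, leaving out oligodendrocyte replicate 34 gave 5.07 against oligodendrocytes, and leaving out astrocyte replicate 32 gave 3.47 and 3.79, all with the call kept. A noncoding gene on the other strand, Gm4675, shares 713 exon bases with Sox21, and the kit does not record strand, so reads of these bases cannot be told apart.

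Emx2 (ENSMUSG00000043969, chr19:59458372-59465357, plus strand), a homeodomain factor of the embryonic forebrain, was the lowest of the 10 genes per kb of exon in each sorted type. It had 16, 15, 0 and 19 counts in sorted astrocytes, 0, 10, 1 and 1 counts in sorted neurons and 0, 1, 2 and 1 counts in sorted oligodendrocytes. The 0 of astrocyte replicate 30 allows up to 22.3 CPM and so says little, while replicates 6, 8 and 32 had 6.82, 5.86 and 5.87 CPM, above every neuron and oligodendrocyte library. Neuron replicate 4, with 4.18 CPM, stood apart from the other neuron libraries. Against oligodendrocytes the log2 difference was 3.40 ± 1.03 (adjusted p = 0.0307) and against neurons 2.40 ± 0.89 (adjusted p = 0.0719). The call against oligodendrocytes was lost without astrocyte replicate 6 (3.25, adjusted p = 0.0799), 8 (3.37, 0.0656) or 32 (3.33, 0.0722) or oligodendrocyte replicate 10 (2.83, 0.0896), 12 (3.37, 0.0658) or 34 (3.73, 0.0516), and a call against neurons was gained without neuron replicate 4 (4.30, 0.00752) or oligodendrocyte replicate 36 (2.43, 0.0279). An antisense gene, Emx2os, shares 264 exon bases with Emx2, and reads of these bases cannot be told apart.

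Sox2 (ENSMUSG00000074637, chr3:34650405-34652461, plus strand), an HMG-box factor of neural progenitors, had 52.0, 37.1, 37.2 and 50.0 CPM in sorted astrocytes, against 2.64, 2.92, 0 and 1.14 CPM in sorted neurons. Sorted oligodendrocytes had 47.1, 75.3, 24.6 and 136 CPM. Both glial types lay above all neuron libraries, and they overlapped each other, with the oligodendrocytes the more spread. Astrocytes were higher than neurons by 4.86 ± 0.84 on the log2 scale (adjusted p = 0.000596). Neurons differed from oligodendrocytes by -5.92 ± 0.87 (adjusted p = 0.00014), a value that was -5.11 (adjusted p = 2.58e-06) without oligodendrocyte replicate 36. Astrocytes and oligodendrocytes did not differ past the threshold (-1.06 ± 0.70, adjusted p = 0.377), and without oligodendrocyte replicate 36 the value was -0.22 (adjusted p = 0.795). The number of Sox2 counts per Sox9 count, a ratio chosen after its values were seen and given with no test, was 0.626, 0.514, 0.417 and 0.486 in sorted astrocytes, against 7.67, 8.32, 2.87 and 72.7 in sorted oligodendrocytes. Sox2 lies within the much longer noncoding gene Sox2ot on the same strand, with no exon base shared.

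The 3 nuclear factor I genes among the 10 bind the same DNA core and had different patterns. Nfia (ENSMUSG00000028565, chr4:97772734-98118874, plus strand) had 934, 596, 670 and 553 CPM in sorted astrocytes, against 411, 288, 296 and 403 CPM in sorted neurons and 373, 523, 467 and 429 CPM in sorted oligodendrocytes. In CPM, the astrocyte libraries lay above the other 8, by a small margin. CPM leaves out the normalization factors of the fit, 0.629 for oligodendrocyte replicate 36 and 0.956 to 1.13 for sorted astrocytes. With these applied, oligodendrocyte replicate 36 did not lie below all astrocyte libraries. The log2 difference was 1.14 ± 0.33 against neurons (adjusted p = 0.0207) and 0.36 ± 0.33 against oligodendrocytes (adjusted p = 0.562). The call against neurons was lost without neuron replicate 4 (0.99, adjusted p = 0.1), 26 (1.01, 0.0952) or 28 (1.17, 0.0515) or astrocyte replicate 6 (0.93, 0.0866), and with no filter on low counts (1.08, 0.0516). E130114P18Rik, which overlaps the start of Nfia on the other strand with 4 shared exon bases, had 26.01, 17.6, 0 and 13.9 CPM in sorted astrocytes, against 0 to 2.49 CPM in sorted neurons and 0 to 0.682 CPM in sorted oligodendrocytes, and its part in the Nfia counts was not tested.

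Nfib (ENSMUSG00000008575, chr4:82290173-82705750, minus strand) had 531, 499, 447 and 400 CPM in sorted astrocytes, against 476, 484, 492 and 525 CPM in sorted neurons and 283, 202, 291 and 373 CPM in sorted oligodendrocytes. In CPM, astrocytes and neurons overlapped, and every oligodendrocyte library lay below both. Oligodendrocyte replicate 36 had a normalization factor of 0.629. With the factors applied, this library no longer lay below the astrocyte and neuron libraries. The fit, which scales each library by its normalization factor, gave log2 differences of 0.09 ± 0.34 for astrocytes over neurons (adjusted p = 0.91), 0.40 ± 0.34 for astrocytes over oligodendrocytes (adjusted p = 0.526) and 0.30 ± 0.34 for neurons over oligodendrocytes (adjusted p = 0.568). Without oligodendrocyte replicate 36, the last pair became 0.76 (adjusted p = 0.0251) and 0.67 (adjusted p = 0.0386), both past the threshold.

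Nfix (ENSMUSG00000001911, chr8:84699876-84800344, minus strand) went the other way from Sox9 and Rfx4. It had 48.6, 40.2, 37.2 and 63.3 CPM in sorted astrocytes, against 141, 56.4, 50.2 and 42.3 CPM in sorted neurons and 154, 246, 119 and 286 CPM in sorted oligodendrocytes. Astrocytes lay below all oligodendrocytes and overlapped neurons, of which replicate 2 stood apart and reached into the oligodendrocyte range. In the fit, the log2 difference was -2.38 ± 0.54 for astrocytes over oligodendrocytes (adjusted p = 0.00493), -1.96 ± 0.53 for neurons over oligodendrocytes (adjusted p = 0.0131) and -0.43 ± 0.52 for astrocytes over neurons (adjusted p = 0.679). The neuron call missed the threshold without neuron replicate 4 (-1.83, adjusted p = 0.0501) or 26 (-1.81, 0.0505), and without replicate 2 it was -2.56 (0.00453). In males alone it was -1.29 (adjusted p = 0.0699). A pair of genes on the other strand lie within Nfix: Lyl1 had at most 2.73 CPM in any sorted library and G430095P16Rik, which shares 137 exon bases, had 4.26, 1.95, 7.44 and 3.70 CPM in sorted astrocytes and 11.6, 13.8, 4.47 and 0 CPM in sorted oligodendrocytes.

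The makeup of the family followed from these levels. With Nfic, the remaining member of the family, added, Nfix made up 2.92% to 5.87% of the summed counts of the 4 Nfi genes in sorted astrocytes, 4.27% to 12.5% in sorted neurons and 12.8% to 22.5% in sorted oligodendrocytes. Nfia made up 50.6% to 58.9% in sorted astrocytes, 33.96% to 40.6% in sorted neurons and 32.4% to 50.0% in sorted oligodendrocytes. Nfib made up 33.5% to 42.4% in sorted astrocytes, 42.1% to 57.1% in sorted neurons and 18.5% to 32.6% in sorted oligodendrocytes. The Nfix share of astrocytes did not overlap that of oligodendrocytes, and Nfia led in every astrocyte library while Nfib led in every neuron library. These shares were chosen after the levels were seen, and they are not per length of gene.

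**Figure D3:**
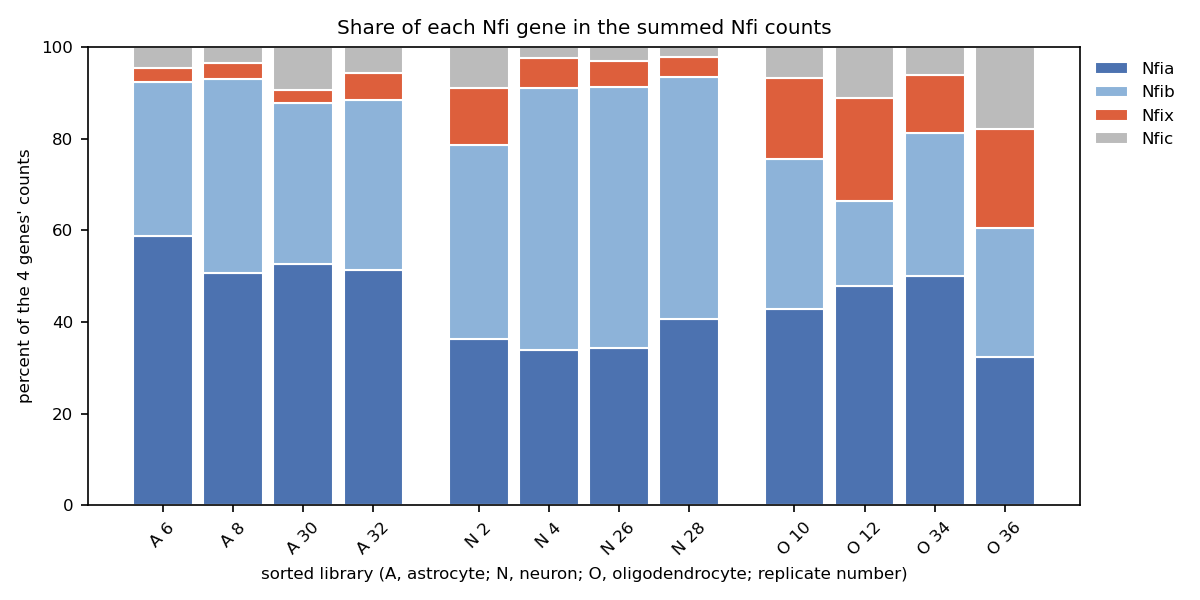
Share in percent (vertical axis, 0 to 100) of Nfia, Nfib, Nfix and Nfic in their summed counts, 1 bar for each of the 12 sorted libraries, astrocytes at the left, then neurons, then oligodendrocytes. The Nfix segment is 2.92% to 5.87% in astrocytes and 12.8% to 22.5% in oligodendrocytes.

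Pax6 (ENSMUSG00000027168, chr2:105668900-105697364, plus strand), a paired-box factor, had 152, 164, 119 and 91.7 CPM in sorted astrocytes, against 133.8, 104, 146 and 186 CPM in sorted neurons. In sorted oligodendrocytes it had 9.55, 13.8, 17.1 and 0 CPM. Astrocytes and neurons overlapped, and both lay above all oligodendrocytes. The log2 difference was 0.06 ± 0.60 for astrocytes over neurons (adjusted p = 0.973), 3.56 ± 0.68 for astrocytes over oligodendrocytes (adjusted p = 0.00117) and 3.51 ± 0.67 for neurons over oligodendrocytes (adjusted p = 0.00134). Cerebellar granule cells are a known site of Pax6 in the adult brain, and the summed level of 8 granule cell markers, all detected in each type, was 374 to 484 CPM in sorted astrocytes, 9044 to 20431 CPM in sorted neurons and 167 to 518 CPM in sorted oligodendrocytes. The part of granule cells in the neuronal Pax6 level was not tested.

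Within sorted astrocytes, levels per kb of GENCODE exon ranked the genes as Nfia (63.2 CPM per kb), Rfx4 (46.0), Nfib (31.4), Sox2 (21.4), Sox9 (21.0), Pax6 (11.3), Lhx2 (8.20), Nfix (6.44), Sox21 (5.87) and Emx2 (1.54). In sorted neurons Nfib (33.03 CPM per kb) and Nfia (32.1) led, followed by Pax6 (12.2) and Nfix (9.86), and each of the other 6 had at most 1.61. In sorted oligodendrocytes Nfia (41.2 CPM per kb), Sox2 (34.4), Nfix (27.4) and Nfib (19.2) led, and each of the other 6 had at most 1.55. Nfia and Nfib thus stood among the 4 leading genes of all 3 types, and the rest of the order changed with the type. Which parts of a gene were counted is not given in the sources used here, so these levels are approximate for genes with long introns.

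Markers of other cell types were also found in the sorted astrocyte libraries. The summed level of 6 choroid plexus markers, all detected, was 650, 4901, 7220 and 6497 CPM in sorted astrocyte replicates 6, 8, 30 and 32, against 119 to 168 CPM in sorted neurons and 46.8 to 182 CPM in sorted oligodendrocytes. Replicate 6, with the lowest sum, had the highest Rfx4, Nfia, Nfib, Sox2 and Emx2 levels of the 4. It did not have the highest level of Sox9, Nfix, Lhx2, Sox21 or Pax6. The 6 oligodendrocyte precursor markers summed to 2042 to 2878 CPM in sorted astrocytes, 71.4 to 105 CPM in sorted neurons and 112 to 182 CPM in sorted oligodendrocytes, but nearly all of the astrocyte sum was Ptprz1, which astrocytes also express. Without it, the other 5 markers summed to 32.8 to 104 CPM in sorted astrocytes, 13.3 to 32.8 CPM in sorted neurons and 29.95 to 103 CPM in sorted oligodendrocytes. Of 5 precursor markers tested, only Ptprz1 was higher in astrocytes than in neurons or oligodendrocytes. Gpr17 was lower in astrocytes than in oligodendrocytes (-3.90 ± 0.63). Between sorted and presort astrocyte-line nuclei, Pdgfra (-2.11 ± 0.45) and Gpr17 (-4.65 ± 0.43) were lower in sorted nuclei and Ptprz1 (2.96 ± 0.27) was higher. Cspg4 (-0.73 ± 0.40, adjusted p = 0.193) and C1ql1 (-0.78 ± 0.55, adjusted p = 0.332) did not pass there. Ependymal markers summed to 33.6 to 67.0 CPM in sorted astrocytes, with Ccdc153 at 0, and to 57.2 to 74.7 CPM in sorted neurons and 0 to 33.8 CPM in sorted oligodendrocytes. The 8 mural and fibroblast markers summed to 313 to 449 CPM in sorted astrocytes, 11.2 to 25.2 CPM in sorted neurons and 4.37 to 190 CPM in sorted oligodendrocytes. Of 7 tested, 5 were higher in sorted astrocytes than in neurons and 1 than in oligodendrocytes. Presort astrocyte-line nuclei had a sum of 377 to 656 CPM. Of 7 tested in that line, 1 was higher and 3 were lower in sorted nuclei. The part of these cells in the levels of the 10 genes was not tested.

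The comparisons of sorted nuclei were also fitted within each sex. In males alone, 6 of the 10 genes were higher in astrocytes than in neurons and 0 lower, 6 were higher and 1 lower than in oligodendrocytes, and Sox9 differed by 3.88 from neurons and Rfx4 by 5.06. In females alone, the log2 differences of Sox9 (5.27) and Rfx4 (4.91) from neurons kept their direction, but none of the 9 genes tested passed in any of the 3 comparisons. At an unadjusted p under 0.05 in edgeR, 5 of them did so between astrocytes and neurons, 4 between astrocytes and oligodendrocytes and 3 between neurons and oligodendrocytes. The share of all genes at this unadjusted threshold was not computed, so these counts do not set the 10 genes apart. Of all genes, 46 of 13210 passed the adjusted threshold in either direction between astrocytes and neurons in females, against 3616 of 13361 in males. Between astrocytes and oligodendrocytes 67 of 13210 passed in females, against 3023 of 13361 in males. The female fit holds both libraries that stand apart.

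Sorted and presort nuclei of the same line were compared next. Presort nuclei were taken from the same mice, but the labels do not state which presort library belongs to which sorted one, so the libraries were fitted as unpaired. In the astrocyte line, 9 of the 10 genes passed the filter on low counts, and 8 of these were higher in sorted nuclei, all but Nfix. A gene with few presort counts could pass this filter mainly through the sorted libraries where it was high. The counts of higher and lower genes are therefore not independent of the filter, here and in the other lines. Among all 11026 genes tested, 13.7% were higher and 15.2% lower, and 0 of the 9 were lower in edgeR, at an unadjusted p under 0.05 and in DESeq2. Sox9 had 83.1, 72.2, 89.3 and 103 CPM in sorted nuclei, against 6.76, 8.67, 7.63 and 12.6 CPM in presort nuclei (replicates 5, 7, 29 and 31), where the values rest on 1, 2, 25 and 3 counts. Rfx4 had 282, 198, 216 and 173 CPM in sorted nuclei, against 6.76, 4.33, 19.2 and 33.6 CPM in presort nuclei. Neither gene overlapped between sorted and presort nuclei, and the log2 differences were 3.58 ± 0.40 for Sox9 (adjusted p = 9.52e-07) and 3.83 ± 0.40 for Rfx4 (adjusted p = 5.001e-07).

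Sox2 was higher in sorted than in presort astrocyte-line nuclei by 2.79 ± 0.44 on the log2 scale (adjusted p = 5.20e-05), Sox21 by 2.31 ± 0.67 (0.0116), Lhx2 by 1.78 ± 0.50 (0.00868) and Nfia by 1.15 ± 0.26 (0.00198). The smallest changes that passed were those of Pax6 (0.84 ± 0.29, adjusted p = 0.0344) and Nfib (0.66 ± 0.23, 0.0365), while Nfix had -0.61 ± 0.32 (0.183). Pax6 was lost without presort replicate 5 (0.86, adjusted p = 0.0563), 7 (0.80, 0.0839), 29 (0.72, 0.11) or 31 (0.92, 0.0508) or sorted replicate 6 (0.75, 0.0591) or 8 (0.72, 0.0802), and Nfib without presort replicate 5 (0.61, 0.109), 7 (0.70, 0.0693), 29 (0.61, 0.0719) or 31 (0.67, 0.0925). Without presort replicate 29 the count of 8 became 3 of 6 tested, since Sox2, Sox21 and Lhx2 no longer passed the filter and Nfib and Pax6 lost their calls. Without sorted replicate 32 it was 5 of 6 tested, with the same 3 genes untested, and without sorted replicate 6 or 8 it was 4 of 6, where Pax6 lost its call as well. Without sorted replicate 30 all 10 genes were tested and 9 were higher.

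In the neuron line, 7 of the 10 genes were tested, and only Rfx4 passed the test. It had 8.67, 7.52, 6.23 and 8.01 CPM in sorted nuclei, against 61.3, 22.9, 34.01 and 17.1 CPM in presort nuclei (replicates 1, 3, 25 and 27), with no overlap. The log2 difference was -2.04 ± 0.45 (adjusted p = 0.0109), and it missed the threshold without presort replicate 1 (-1.48, adjusted p = 0.115). In this line 5.1% of the 11024 genes tested were lower and 1.27% higher. None of the 7 was higher in edgeR, while 1 was at an unadjusted p under 0.05 and 1 in DESeq2, in which Nfib passed (0.52, adjusted p = 0.0455). Sox9 had -1.75 ± 0.58 (adjusted p = 0.094), with 2.08 to 6.41 CPM in sorted nuclei and 7.56 to 27.3 CPM in presort nuclei. These ranges did not overlap, but the presort values rest on 8, 6, 2 and 2 counts. Those of presort replicates 25 and 27 lie under the floor of 3 counts, so the counts do not establish the separation. With consecutive title numbers as a replicate block, Nfib passed (0.52, adjusted p = 0.0384), while Sox9 was -1.69 (0.0614). Without sorted replicate 2, 4, 26 or 28 only 4 of the 10 genes passed the filter, and 0 of them was called.

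In the oligodendrocyte line, 6 of the 10 genes were tested, 2 of them higher in sorted nuclei (Sox2 and Nfix) and 2 lower (Rfx4 and Pax6). Among all 9520 genes tested, 5.12% were higher and 3.24% lower. Pax6 had 9.55, 13.8, 17.1 and 0 CPM in sorted nuclei, against 121, 139, 130 and 127 CPM in presort nuclei (replicates 9, 11, 33 and 35), and the log2 difference was -3.30 ± 0.81 (adjusted p = 0.0289). Sox2 had 47.1, 75.3, 24.6 and 136 CPM in sorted nuclei, against 9.56, 7.70, 0 and 18.2 CPM in presort nuclei, a log2 difference of 3.83 ± 0.99 (adjusted p = 0.0361). In both genes the groups did not overlap, but the presort Sox2 values rest on 3, 2, 0 and 4 counts. So few counts do not establish the separation for Sox2.

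Nfix had 154, 246, 119 and 286 CPM in sorted oligodendrocyte-line nuclei, against 47.8, 80.8, 91.9 and 91.0 CPM in presort nuclei, without overlap (2.09 ± 0.56, adjusted p = 0.0425). Rfx4 had 0 to 4.47 CPM in sorted nuclei, against 11.5 to 50.0 CPM in presort nuclei (-3.23 ± 0.90, adjusted p = 0.048). Without any single presort library, replicate 9, 11, 33 or 35, 0 genes were called in either direction of 8 tested, and with sex as a covariate 0 were higher and 1 was lower. Without sorted replicate 36, the library that stands apart, Pax6 was -2.92 (adjusted p = 2.86e-05) and Nfix was 1.53 (0.00398), and Sox2 and Rfx4 did not pass the filter and were not tested. Without sorted replicate 34, 2 of 5 tested were higher and 1 lower. Of 4 tested, 1 was higher and 0 lower without sorted replicate 10, and 0 were higher and 0 lower without replicate 12.

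**Figure D4:**
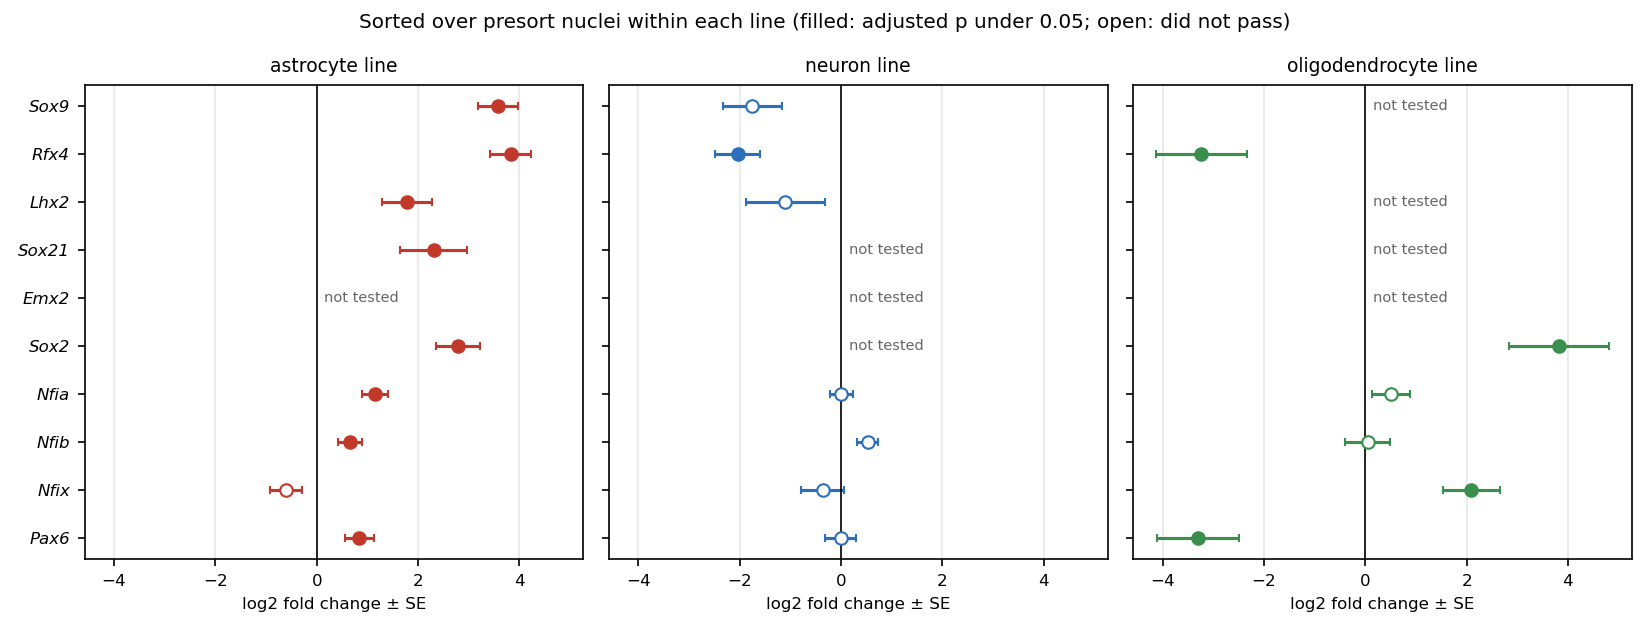
Log2 fold change ± SE (horizontal axis) of sorted over presort nuclei for the 10 genes in the astrocyte, neuron and oligodendrocyte lines. Filled points passed an adjusted p of 0.05, open points did not, and genes that did not pass the filter on low counts are marked as not tested. Sox9 and Rfx4 lie far to the right in the astrocyte line, and Rfx4 lies to the left in the other 2 lines.

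Whether the change with sorting differed between lines was tested as an interaction in 1 fit of the 24 nuclear libraries and 12171 genes, in which 9 of the 10 genes were tested. The astrocyte line's change minus the neuron line's passed for 3 genes in the positive direction (7.19% of all genes) and for 0 in the negative direction (7.01% of all genes), also 0 at an unadjusted p under 0.05 and in DESeq2. These were Rfx4 (5.90 ± 0.82, adjusted p = 7.46e-06), Sox9 (5.26 ± 0.76, adjusted p = 1.35e-05) and Sox2 (3.97 ± 1.37, adjusted p = 0.0496). Sox2 missed the threshold without sorted astrocyte replicate 6 (adjusted p = 0.0527) or 32 (0.0538), sorted neuron replicate 28 (0.0549), presort astrocyte replicate 5 (0.0571), 7 (0.0571) or 29 (0.0749) or presort neuron replicate 1 (0.138), 25 (0.0677) or 27 (0.152). Nfia had 1.11 ± 0.40 (adjusted p = 0.0656), and 10 single leave-outs brought it past the threshold: presort astrocyte replicate 31, sorted astrocyte replicate 8, 30 or 32, sorted neuron replicate 2 or 28 and sorted oligodendrocyte replicate 10, 12, 34 or 36, with values between 1.20 and 1.35.

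The astrocyte line's change minus the oligodendrocyte line's passed for 4 genes in the positive direction (6.41% of all genes) and for Nfix in the negative direction (7.01% of all genes). The 4 were Rfx4 (7.02 ± 0.87, adjusted p = 8.22e-07), Sox9 (4.28 ± 0.76, 0.000167), Pax6 (4.03 ± 0.67, 7.07e-05) and Sox21 (5.22 ± 1.58, 0.0263), and Nfix had -2.79 ± 0.69 (0.00505). Sox21 depended on presort oligodendrocyte replicate 35, which had 8 counts and without which the value was 3.94 with an adjusted p of 0.204. Without sorted oligodendrocyte replicate 36, Nfix was -2.07 (0.00983), and Nfib (1.17, 0.00137) and Nfia (0.93, 0.0488) passed as well.

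Presort nuclei of the 3 lines, 12 libraries, were compared with the 2 cytoplasm libraries over 7728 genes, and 5 of the 10 genes were tested. Nfia (-1.34 ± 0.31, adjusted p = 0.00115) and Nfix (-2.14 ± 0.32, adjusted p = 1.28e-05) were lower in presort nuclei, and 0 of the 5 were higher in edgeR, at an unadjusted p under 0.05 and in DESeq2. Of all genes, 29.8% were lower and 20.6% higher. Nfia had 287 to 532 CPM in the presort libraries, against 982 and 333 CPM in cytoplasm replicates 1 and 2, and Nfix had 37.8 to 137 CPM in the presort libraries, against 154 and 400 CPM in cytoplasm. The 2 cytoplasm libraries thus disagreed for Nfia: without replicate 1 its difference was -0.05 (adjusted p = 0.912), and without replicate 2 it was -1.96 (3.48e-06). Without replicate 1, Nfib (1.36, 0.00199) and Pax6 (1.59, 0.0111) were higher in nuclei, and without replicate 2 Nfix was -1.47 (0.00242). Mitochondrially encoded genes took 5.89% of the counts in cytoplasm replicate 1 and 0.517% in replicate 2, and their part in the difference was not tested.

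Relatives of the 10 genes did not all follow them. Of 17 other Sox genes, 7 were tested in sorted nuclei, 5 of them higher in astrocytes than in neurons: Sox13 (6.21 ± 1.06), Sox1 (5.56 ± 0.87), Sox6 (4.09 ± 0.73), Sox8 (2.32 ± 0.42) and Sox5 (1.75 ± 0.50). Against oligodendrocytes Sox1 (4.44 ± 0.84), Sox6 (4.15 ± 0.73) and Sox5 (3.39 ± 0.53) were higher and Sox10, the factor of the oligodendrocyte lineage, was lower (-7.29 ± 0.89), with 3.20 ± 2.91 CPM in sorted astrocytes and 262 ± 117 CPM in sorted oligodendrocytes (SD, n = 4 each). Between neurons and oligodendrocytes Sox5 was higher in neurons (1.65 ± 0.50), and Sox10 (-6.81 ± 0.82), Sox13 (-4.90 ± 1.04), Sox8 (-3.41 ± 0.44) and Sox12 (-2.75 ± 0.84) were lower. Sox8 was thus high in both glial types, as Sox2 was, and Sox1, the near relative of Sox2, was high in astrocytes (60.6 ± 10.7 CPM) but not in neurons (1.41 ± 1.02 CPM) or oligodendrocytes (2.31 ± 2.70 CPM).

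Of 9 genes of the RFX family and its partners, 7 were tested, and Rfx2 was higher in astrocytes than in neurons (4.996 ± 0.77) and than in oligodendrocytes (2.68 ± 0.69), as Rfx4 was. Rfxank, a partner in the RFX complex of MHC class II genes, was higher in astrocytes than in neurons (2.77 ± 0.77), and Rfx3, a factor of ciliated cells, was higher in astrocytes than in oligodendrocytes (1.23 ± 0.38). Rfx2 was lower in neurons than in oligodendrocytes (-2.32 ± 0.75). Nfic, the remaining nuclear factor I gene, was lower in neurons than in oligodendrocytes (-2.03 ± 0.70), as Nfix was. Among 11 LIM homeobox relatives of Lhx2 only Lhx1, a factor of Purkinje and other neurons, passed the filter, and it was lower in astrocytes than in neurons (-3.75 ± 0.80) and higher in neurons than in oligodendrocytes (3.19 ± 0.73). Of 8 other Pax genes only Pax3 passed the filter, and it was higher in astrocytes than in neurons (5.08 ± 0.87) and than in oligodendrocytes (6.31 ± 1.04), while Emx1 was not tested.

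Other factors of astrocytes and radial glia, 22 genes of which 20 were tested, were higher in astrocytes than in neurons for 16 genes and than in oligodendrocytes for 13, with 0 lower in either, and their median log2 differences were 4.23 and 3.69. The 4 with the highest level were Zbtb20 (1.44 ± 0.34, adjusted p = 0.00612), Etv5 (1.32 ± 0.57, 0.132), Stat3 (1.05 ± 0.49, 0.166) and Npas3 (4.97 ± 0.59, 2.84e-05) for astrocytes over neurons, so that only Zbtb20 and Npas3 passed. Genes reported as bound or activated by SOX9 or NFIA, 15 genes, were higher in astrocytes than in neurons for 14 and than in oligodendrocytes for 12, with median log2 differences of 4.61 and 4.16. Among them, the glutamate transporter gene Slc1a2 had 13920 ± 756 CPM in sorted astrocytes, against 619 ± 147 CPM in sorted neurons and 565 ± 425 CPM in sorted oligodendrocytes (SD, n = 4 each). The bicarbonate transporter gene Slc4a4 differed by 2.48 ± 0.38 from neurons and Ndrg2 by 3.86 ± 0.54. Many of these targets are themselves astrocyte markers, so their counts are no independent measure of the activity of SOX9 or NFIA.

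For each of the 10 genes, the genes with the most similar profile over the 12 sorted libraries were found by Pearson's r of log2 CPM among 13029 genes, as a description. The libraries share 3 cell types, which sets most of each r. Sox9 was nearest to Cyp2d22, Slc38a3 and Slc6a11 (r = 0.993, 0.992 and 0.992), and Rfx4 to Fam198a, Frem2 and Gm3764 (r = 0.993, 0.990 and 0.988). Nfix was nearest to Abca2, Ccdc187 and B230344G16Rik (r = 0.978, 0.963 and 0.962), Sox2 to 6430503K07Rik, Sall1 and Myo1e (r = 0.975, 0.973 and 0.972), and Pax6 to Lpp and Adgrb3 (r = 0.987 and 0.986). Sox21 was nearest to Hey2 (r = 0.955), Lhx2 to Abr (r = 0.920), Nfia to Amer2 (r = 0.942), Nfib to Ppp2r2b (r = 0.947) and Emx2 to Gem (r = 0.930).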

How the data were processed

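Per the labels' protocols, Trizol extraction and DNase treatment were followed by MinElute columns (Qiagen) and by amplification in NuGEN's Ovation V2 kit, which keeps no strand. The submitters' processing notes name Trimmomatic, Bowtie2, STAR, bedtools and edgeR, without versions. The authors deposited raw read counts per Ensembl gene and library, and the values are whole numbers. The sources used here do not give the genome build, annotation, counted regions or sorting method. Counts are reads and not molecules, so floors cover counting error only.

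Symbols, coordinates and exon lengths came from GENCODE vM21 (GRCm38), in which 26495 of 27501 identifiers were found, and upstream sequences from RefSeq (GRCm38.p6). CPM was computed as counts scaled to a library total of 1000000. Counts were tested with edgeR 4.0.16 (quasi-likelihood F test, TMM, filterByExpr with a minimum count of 10) in R 4.3.3, with two-sided tests, Benjamini-Hochberg adjustment over all genes tested and a threshold of 0.05. The code was tested on simulated data. Similarity of profiles was Pearson's r of log2 CPM with a prior count of 2. Alternatives were DESeq2 1.42.0, relative log expression (RLE) size factors, no filter, sex as a covariate, other sets of libraries and leaving out each library. Consecutive title numbers, presort n and sorted n + 1, were checked as pairs by Pearson's r of deviations from the group means over genes. This r exceeded 0.1 in all 4 pairs of the neuron line (0.199 to 0.324) and not in all pairs of the other lines. Same-sex neuron-line libraries of other numbers also exceeded 0.1: sorted 28 with presort 25 (0.206), 26 with 27 (0.144) and 2 with 3 (0.124). Sorted 4 with presort 1 had 0.070. The values do not establish that consecutive numbers are from 1 mouse. A replicate block was fitted as an alternative. The 10 genes and all lists were chosen with earlier results of these data known. All tested relatives that passed are named, and of the other lists the 4 genes with the highest mean CPM. Some genes that these rules name are not reported here.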

Additional observations from a re-analysis of the deposited data

Results flagged for a closer look

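Of 57 groups of 4 libraries tested with Dixon's criterion at 95%, 5 held a library far from the other 3, and chance alone marks about 1 in 20 groups. Nfia was lowest in presort neuron-line replicate 3, with 323 CPM. Nfix was highest in sorted neuron replicate 2, with 141 CPM. Emx2 was lowest in sorted astrocyte replicate 30, with 0 CPM, and highest in sorted neuron replicate 4, with 4.18 CPM, and in presort astrocyte-line replicate 29, with 2.14 CPM, which rests on 7 counts. The 0 of sorted astrocyte replicate 30 allows up to 22.3 CPM. The other 3 presort astrocyte-line libraries had 0 counts, which allow up to 12.6 to 20.3 CPM. These 2 flags therefore do not separate the libraries.

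The change with sorting differed between lines, by a test of the interaction, in 8 cases. The astrocyte line's log2 change exceeded the neuron line's by 5.26 for Sox9, 5.90 for Rfx4 and 3.97 for Sox2. It exceeded the oligodendrocyte line's by 4.28 for Sox9, 7.02 for Rfx4, 5.22 for Sox21 and 4.03 for Pax6, and the difference was -2.79 for Nfix.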

How the results depend on the processing

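Groups share no replicate number, but a presort library numbered n and a sorted one numbered n + 1 share line and sex, and a fit with such pairs as a replicate block was added after seeing the data. In the astrocyte line 4 pairs correlated at 0.028 to 0.13 and in the oligodendrocyte line at -0.00075 to 0.17, and not every sorted library correlated best with its own number. With this block, 6 genes were higher in the astrocyte line, where Sox21 (1.76, adjusted p = 0.116) and Pax6 (0.76, 0.0662) did not pass, 1 in the neuron line and 0 in the oligodendrocyte line, where 0 were lower, and the interactions gave 4 against the neuron line, with Nfia (1.12, adjusted p = 0.0475) added, and 3 against the oligodendrocyte line, where Sox21 (4.27, 0.159) did not pass. Uncalled Nfia in the neuron line was -0.011 and Nfib in the oligodendrocyte line -0.13 with the block. Under the alternatives, the signs of Sox9 and Rfx4 in both astrocyte comparisons did not change. Counts of called genes moved as follows, and the cause was not tested. With females only, 0 genes passed for astrocytes over neurons, 0 higher and 0 lower for astrocytes over oligodendrocytes, and 0 higher and 0 lower for neurons over oligodendrocytes. For neurons over oligodendrocytes, 2 were higher with DESeq2 and 2 without sorted astrocyte 30 and sorted oligodendrocyte 36, an alternative chosen after seeing the data, and 1 was lower with males only. With all 24 nuclear libraries, 4 were higher in the sorted astrocyte line. With DESeq2, 1 was higher in the sorted neuron line. In the oligodendrocyte line, 1 was higher with RLE size factors, 0 were higher and 1 lower with sex as a covariate, and 1 lower with no filter. With no filter, 6 were lower in presort nuclei than in cytoplasm.

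Signs changed only where no call had been made. For astrocytes over neurons, Nfib was -0.0094 with all 24 libraries and -0.10 with females only, Nfix was 0.36 with females only, and Pax6 was -0.045 with all 24 libraries and -0.51 with females only. Nfib with females only was -0.11 for astrocytes over oligodendrocytes and -0.0038 for neurons over oligodendrocytes. For neurons over oligodendrocytes, Lhx2 was 0.93 with males only and 0.41 without sorted astrocyte 30 and sorted oligodendrocyte 36, and Sox21 was -4.54 with females only. For sorted over presort nuclei, Nfia in the neuron line was -0.0017 with RLE and -0.0010 with DESeq2, Pax6 in that line was 0.14 with no filter and 0.0069 with all 24 libraries, and Nfib in the oligodendrocyte line was -0.039 with sex as a covariate. The interaction of Sox21 against the neuron line, whose presort libraries had 0 counts, was 0.96 with DESeq2.

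Leaving out 1 library at a time moved the count of higher genes between 4 and 7 for astrocytes over neurons and between 4 and 7 for astrocytes over oligodendrocytes, between 2 and 4 for the interaction against the neuron line and between 3 and 5 for that against the oligodendrocyte line. It moved the count of higher genes between 1 and 3 and of lower genes between 1 and 3 for neurons over oligodendrocytes, of higher genes between 3 and 9 in the astrocyte line, of lower genes between 0 and 1 in the neuron line, of higher genes between 0 and 2 and lower genes between 0 and 1 in the oligodendrocyte line, and of higher genes between 0 and 2 for presort nuclei over cytoplasm. Uncalled log2 differences changed sign in the same way. For astrocytes over neurons, Nfix ran from -0.66 to 0.14 and Pax6 from -0.13 to 0.17. For neurons over oligodendrocytes, Nfib ran from -0.024 to 0.67, Lhx2 from -0.92 to 0.41, Emx2 from -0.93 to 1.41 and Sox21 from -1.16 to 0.99. For sorted over presort nuclei, Nfia in the neuron line ran from -0.17 to 0.12, Pax6 there from -0.24 to 0.39, and Nfib in the oligodendrocyte line from -0.45 to 0.22. Nfib ran from -0.38 to 1.36 and Pax6 from -0.14 to 1.59 for presort nuclei over cytoplasm, and the interaction of Nfix against the neuron line from -0.41 to 0.41. With 1 cytoplasm library left, that library was assumed to vary like the presort ones. The shallow presort libraries limit Emx2, Sox21, Sox2, Lhx2 and Sox9 there to a few counts each.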
